A study of Mus musculus with 18 samples.

Results

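Pou5f1, Sox2 and Nanog encode the core transcription factors of pluripotency, and their RNA was followed through embryoid body differentiation in mouse cells. The genes were taken by their names in the deposited count tables, which gave 3 of the 54429 gene names counted in the FLAG-EED libraries and the same 3 of 54352 in the wildtype libraries. The study is about acetylation of EED by CBP and P300, the activity of Polycomb repressive complex 2 (PRC2) and the differentiation of mouse embryonic stem cells (mESCs). EED is a core subunit of PRC2, which methylates histone H3 at silenced genes. RNA-seq was made from 18 libraries in 9 groups of 2. FLAG-WT cells carried a knock-in of FLAG-tagged EED of wildtype sequence, and K19R cells a knock-in of FLAG-tagged EED with the K19R substitution, which replaces a lysine by an arginine. Each was sampled at day 0 as mESCs in leukemia inhibitory factor (LIF) and 2i, the paired MEK and GSK3 inhibitors, and at days 2, 6 and 10 as embryoid bodies in suspension without LIF and 2i. The remaining group was wildtype mESCs, without the FLAG knock-in, in LIF alone. How many clones were used for each knock-in, and how the wildtype mESCs relate to them, was not given in the sources used here.

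OCT4, the POU domain protein encoded by Pou5f1, and SOX2, an HMG box protein, bind next to each other on composite octamer and SOX elements in the enhancers and promoters of pluripotency genes, their own included. NANOG is a homeodomain protein whose gene is among the targets of that pair, and in mESCs its level depends on the culture medium more than theirs does. All of them are silenced as cells leave pluripotency. Outside pluripotent cells Sox2 is also known from neural progenitors, and all 3 genes from early germ cells.

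The promoter windows of the 3 genes are shown because the factors are known to act on each other's genes, and the letters of their joint element can be read there. Each window runs from 250 bases before to 50 bases after a start annotated by RefSeq, on the plus strand of GRCm38.p6 (for Sox2 a start upstream of the gene as counted), and capitals mark matches to the motifs described after the sequences.
Nanog, chr6:122707239-122707538: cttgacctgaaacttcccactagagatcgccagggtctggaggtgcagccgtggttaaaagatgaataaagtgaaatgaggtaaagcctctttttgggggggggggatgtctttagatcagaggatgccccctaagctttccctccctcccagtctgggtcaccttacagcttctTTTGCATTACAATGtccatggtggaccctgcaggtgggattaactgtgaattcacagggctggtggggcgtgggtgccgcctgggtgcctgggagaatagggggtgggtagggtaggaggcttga
Pou5f1, chr17:35505782-35506081: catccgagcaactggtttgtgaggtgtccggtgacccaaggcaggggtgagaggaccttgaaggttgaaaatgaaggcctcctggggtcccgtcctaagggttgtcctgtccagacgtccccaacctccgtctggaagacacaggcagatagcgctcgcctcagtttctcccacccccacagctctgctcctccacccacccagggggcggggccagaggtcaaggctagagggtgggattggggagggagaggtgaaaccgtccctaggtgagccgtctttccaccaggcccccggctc
Sox2, chr3:34649745-34650044: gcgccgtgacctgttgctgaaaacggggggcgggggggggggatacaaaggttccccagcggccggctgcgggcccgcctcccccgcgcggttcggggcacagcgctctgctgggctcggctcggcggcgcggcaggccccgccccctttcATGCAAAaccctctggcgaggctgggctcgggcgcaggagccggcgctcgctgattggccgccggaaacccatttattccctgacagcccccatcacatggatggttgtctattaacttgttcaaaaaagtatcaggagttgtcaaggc

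The motif searched for, on both strands, was an octamer core, TTTGCAT, then any base, then a SOX core, ACAATG. Written together as TTTGCATNACAATG, it overlaps both cores by construction. Only exact matches within these windows were searched for, so variant letters and sites elsewhere, enhancers included, were not covered. The Nanog window held it once, as TTTGCATTACAATG, at positions 75 to 62 before the start (chr6:122707414-122707427). Among all 32851 RefSeq promoter windows of this length, only 2 held the joined motif, or 0.00609%, and both belong to Nanog, whose second annotated start gives an overlapping window. The Sox2 window held the octamer core alone, on the minus strand, so that it reads ATGCAAA on the strand printed, and 4.63% of windows hold that core. The Pou5f1 window held neither core. The SOX core occurs in 12.6% of windows, among them that of a second, downstream start annotated for Pou5f1.

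The 16 FLAG-EED libraries held 20158077 to 28917558 counts and the wildtype libraries 14190166 and 37375083. Levels are CPM, counts scaled to library size, with edgeR's TMM factors for composition, and a fold compares such levels. In bulk RNA, fewer cells that express a gene and less RNA per cell cannot be told apart. Separate cultures are not stated for the 2 libraries of a group, and the p-values therefore rest on a spread that could be technical. FLAG-WT replicate 2 at day 0 stood apart by its transcripts of Afp, the fetal serum protein alpha-fetoprotein, with 55.6 CPM against 1.79 in replicate 1, and the tests of the 3 factors that rest on its group are given without it as well. The Pou5f1 gene (chromosome 17, 35506018 to 35510772 on GRCm38, plus strand, 2248 exonic bases) shares 317 exonic bases with the minus-strand gene Gm19553, and the counting used no strand option. Sox2 (chromosome 3, 34650405 to 34652461, plus strand) is a single exon of 2057 bases inside the span of the long noncoding RNA gene Sox2ot, with which it shares no exonic base. Nanog (chromosome 6, 122707489 to 122714633, plus strand) has 2242 exonic bases. Gene names of copies or overlapping transcripts, 9 in all and among them Nanog-ps1, Nanog-ps2, Pou5f2 and Gm19553, held at most 8 counts in any library.

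Before differentiation the 3 factors stood at like levels in the knock-in lines. Pou5f1 held 944 and 919.8 CPM in the FLAG-WT libraries and 1035 and 912 in the K19R libraries at day 0. Sox2 held 552 and 527 CPM in FLAG-WT and 533 and 532 in K19R. Nanog held 1408 and 1432 CPM in FLAG-WT and 1421 and 1380 in K19R. For each factor the libraries of the lines overlapped. None of the 3 passed edgeR's quasi-likelihood test with adjustment over all genes, while 10.5% of the 19092 genes tested did, a count of 2003 that was 845 to 955 without any 1 of the 4 libraries. The log2 change of K19R against FLAG-WT was 0.06 for Pou5f1 (95% interval -0.13 to 0.26), -0.02 for Sox2 (-0.19 to 0.16) and -0.02 for Nanog (-0.22 to 0.18). Without FLAG-WT replicate 2 these were 0.05, -0.05 and -0.01, none called.

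Wildtype mESCs in LIF alone held less of each factor than the knock-in mESCs in LIF and 2i, and far less Nanog. They held 717 and 667 CPM of Pou5f1, 427 and 435 of Sox2, and 371 and 373 of Nanog. Every wildtype library lay below every knock-in library at day 0. All 3 factors were called lower against FLAG-WT, as were 32.5% of the 19296 genes tested, with log2 changes of -0.43 ± 0.09 (SE) in Pou5f1, -0.33 ± 0.08 in Sox2 and -1.93 ± 0.10 in Nanog (edgeR adjusted p = 0.00023, 0.0013 and 7e-16). Without FLAG-WT replicate 2 the values were -0.45, -0.36 and -1.92, and all 3 were called. Against K19R, where 32.5% of genes were called lower, the changes were -0.49, -0.31 and -1.91, all called. Count table, line and medium differ together here and cannot be told apart.

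**Figure D1:**
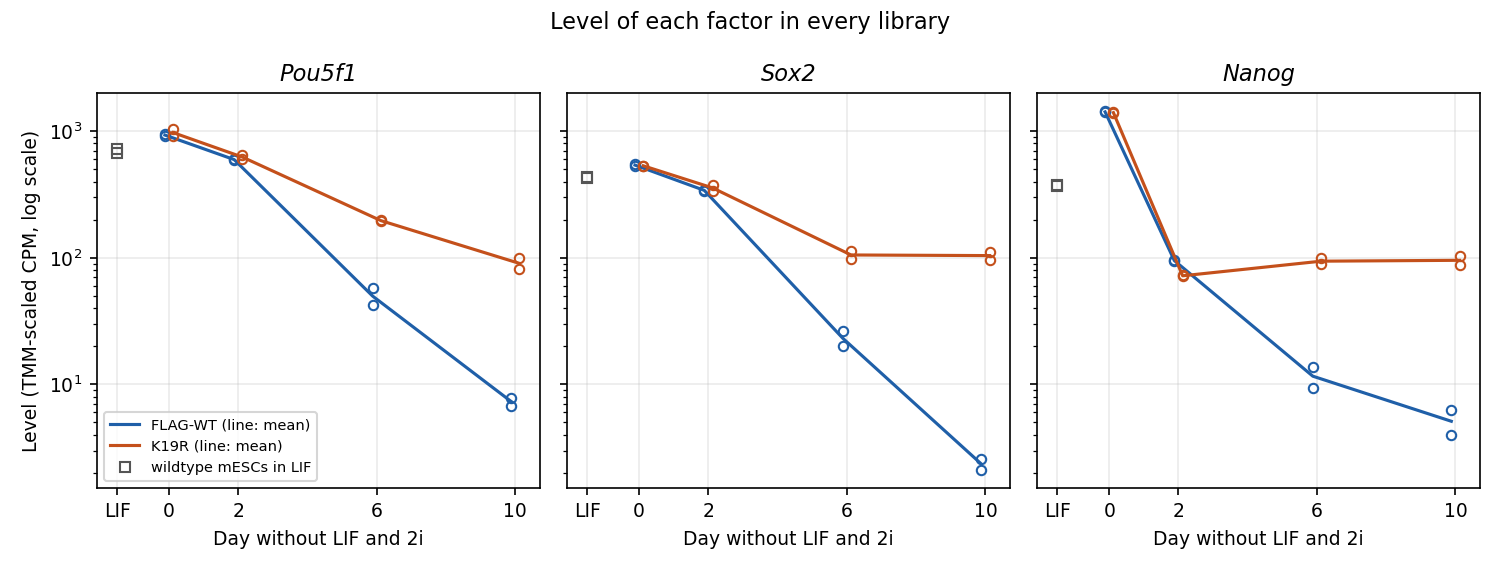
Level of each factor in every library (TMM-scaled CPM on a log axis) by day without LIF and 2i; circles are libraries, lines join group means, and squares are wildtype mESCs in LIF. The lines overlap at day 0 and part after day 2, with Sox2 and Nanog near 100 CPM in K19R at days 6 and 10.

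In FLAG-WT cells Nanog fell most by day 2, while Pou5f1 and Sox2 fell less by then and more steeply afterwards. Nanog fell to 95.2 and 94.8 CPM by day 2, which is 6.69% of its day 0 mean. Pou5f1, at 602 and 591 CPM, kept 63.99% at day 2, and Sox2, at 339 and 342, kept 63.2%. All 3 factors were called lower at day 2, among 27.6% of genes called lower, with log2 changes of -3.90 ± 0.11 (SE) in Nanog, -0.64 ± 0.10 in Pou5f1 and -0.66 ± 0.09 in Sox2 (edgeR adjusted p = 2.1e-20, 2.1e-06 and 2.6e-07). Without replicate 2 of day 0 these were -3.89, -0.66 and -0.69.

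From day 2 to day 6 Pou5f1 and Sox2 made their steepest descent in this line. Pou5f1 fell to 57.2 and 42.3 CPM, a log2 change of -3.58 ± 0.11 (edgeR adjusted p = 2.7e-20). Sox2 fell to 26.2 and 20.1 CPM, a change of -3.87 ± 0.10 (adjusted p = 2e-21). Nanog fell further to 13.8 and 9.38 CPM, a change of -3.01 ± 0.13 (adjusted p = 1.7e-17). No library of day 6 reached a library of day 2 for any factor, and 37.0% of all genes were called lower in this step.

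The loss went on to day 10, when 22.9% of genes were called lower against day 6 and all 3 factors were among them. Pou5f1 reached 6.80 and 7.84 CPM, Sox2 2.11 and 2.59, and Nanog 6.27 and 3.95. The Sox2 levels rest on 40 and 48 counts. The step changed Pou5f1 by -2.77 ± 0.14 log2 (edgeR adjusted p = 1.7e-14), Sox2 by -3.31 ± 0.16 (adjusted p = 1.9e-14) and Nanog by -1.20 ± 0.17 (adjusted p = 2.5e-06). At day 10 FLAG-WT kept 0.785% of the day 0 mean of Pou5f1, 0.436% of Sox2 and 0.360% of Nanog. Over the whole course the log2 changes were -6.99, -7.84 and -8.11, where 40.9% of genes were called lower, and without replicate 2 of day 0 they were -7.01, -7.87 and -8.10.

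Set out per day, the FLAG-WT course gave Nanog a halving every 0.513 days up to day 2, every 1.33 days from day 2 to 6 and every 3.33 days from day 6 to 10. Pou5f1 halved every 3.10, 1.12 and 1.44 days in those steps, and Sox2 every 3.02, 1.03 and 1.21 days. Of its whole log2 loss, Nanog made 48.1% in the first 2 days, Pou5f1 9.22% and Sox2 8.45%.

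K19R cells made the first step much as FLAG-WT cells did. Nanog fell to 72.7 and 71.3 CPM at day 2, 5.14% of its day 0 mean, a log2 change of -4.28 ± 0.11 (edgeR adjusted p = 4.3e-21). Pou5f1 stood at 597 and 650 CPM (64.1% of day 0, change -0.64 ± 0.10, adjusted p = 2.2e-06) and Sox2 at 339 and 374 (66.9%, change -0.58 ± 0.09, adjusted p = 2.1e-06). All 3 were called lower, as were 27.9% of genes.

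After day 2 the 3 factors took separate courses in K19R. Pou5f1 fell to 194 and 199 CPM at day 6 (log2 change -1.67 ± 0.10, edgeR adjusted p = 4.7e-14) and to 98.9 and 81.6 at day 10 (change -1.12 ± 0.10, adjusted p = 4.5e-10), without levelling off. Sox2 fell to 113 and 97.4 CPM at day 6 (change -1.76 ± 0.09, adjusted p = 2.2e-15) and held 111 and 96.8 at day 10. Nanog stood at 99.2 and 88.8 CPM at day 6, above both libraries of day 2, and at 103 and 88.3 at day 10. Its rise from day 2 to day 6 was 0.38 ± 0.10 log2 (adjusted p = 0.0020), and DESeq2 did not call it (0.34, adjusted p = 0.0651). So 2 of the 3 factors were called lower in that step, with 32.1% of genes, and 1 was called higher, with 34.7%.

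Between days 6 and 10 Pou5f1 alone of the 3 was called lower in K19R, where 25.2% of genes were. The libraries of days 6 and 10 overlapped for Sox2 and for Nanog. Sox2 changed by -0.02 log2 with a 95% interval of -0.20 to 0.17 (edgeR adjusted p = 0.89), and Nanog by 0.02 with an interval of -0.19 to 0.23 (adjusted p = 0.86). At day 10 K19R kept 9.27% of the day 0 mean of Pou5f1, 19.5% of Sox2 and 6.82% of Nanog, and the whole course changed them by -3.43, -2.36 and -3.87 log2, with 35.8% of genes called lower.

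**Figure D2:**
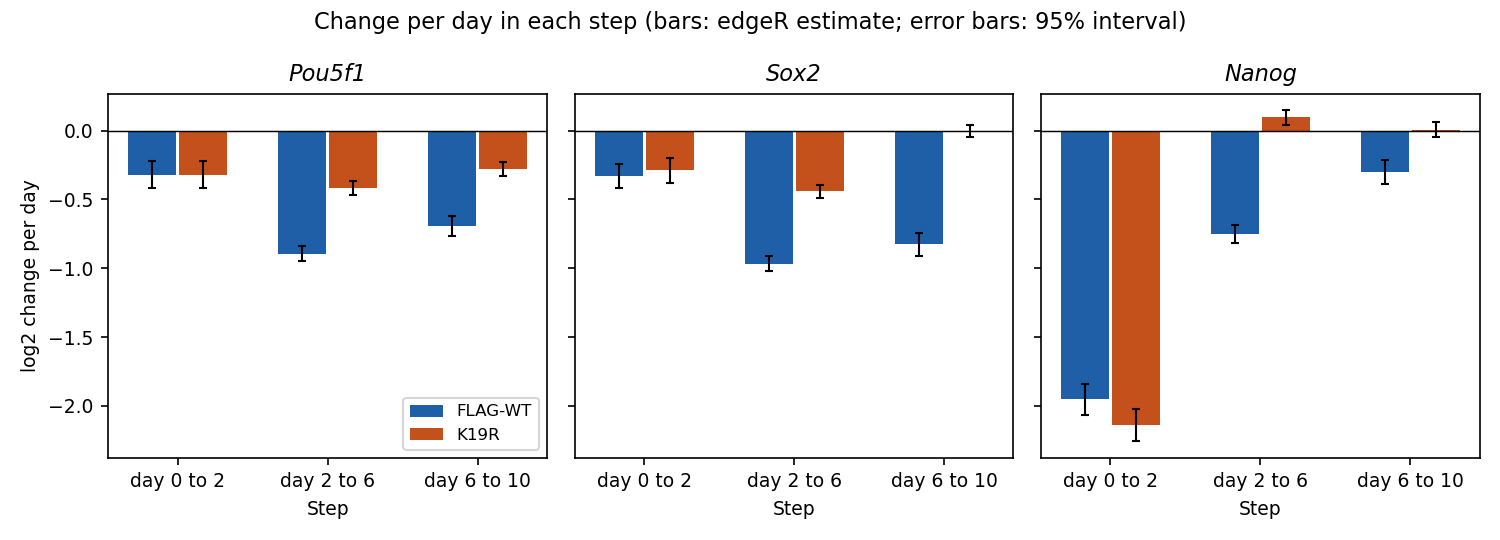
log2 change per day in each of 3 steps for each factor, by line; bars are edgeR estimates and error bars their 95% intervals. In FLAG-WT every bar lies below 0, while in K19R the bars of Sox2 from day 6 to 10 and of Nanog after day 2 are near 0.

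The difference in pace between the lines was tested as an interaction in the same fit. From day 0 to day 2 the interaction was 0.00 ± 0.13 log2 for Pou5f1 (95% interval -0.27 to 0.28) and 0.08 ± 0.12 for Sox2 (-0.17 to 0.33), neither called. Without FLAG-WT replicate 2 of day 0 they were 0.02 and 0.12, and that of Nanog -0.39, none called. With all libraries that of Nanog, -0.38 ± 0.14 (edgeR adjusted p = 0.048), lost its call without any 1 of the 8 libraries (adjusted p between 0.0705 and 0.121), nor with library totals only (adjusted p = 0.0638) or DESeq2 (adjusted p = 0.217). So 1 of 3 factors was called lower in this step, where 14.4% of genes were.

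From day 2 to day 6 the change of each factor was higher in K19R than in FLAG-WT, by 1.91 ± 0.14 log2 for Pou5f1, 2.11 ± 0.13 for Sox2 and 3.39 ± 0.16 for Nanog (edgeR adjusted p = 4.6e-11, 2.4e-12 and 1.7e-14). In this test 23.2% of genes were called higher. From day 6 to day 10, where 24.4% were, the same held by 1.65 ± 0.17, 3.29 ± 0.19 and 1.22 ± 0.20 log2 (adjusted p = 1.9e-08, 7.8e-13 and 2.1e-05). Nanog thus differed most between the lines in the earlier of these steps and Sox2 in the later. Over the whole course the interaction was 3.56, 5.48 and 4.24 log2, where 26.1% of genes were called higher, and 3.58, 5.52 and 4.23 without FLAG-WT replicate 2 of day 0.

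Compared day by day, the lines differed little in these genes at day 2 and widely at days 6 and 10. At day 2 Nanog was lower in K19R by 0.40 ± 0.10 log2 (edgeR adjusted p = 0.0027, and 0.0503 with DESeq2), with 21.8% of genes called lower, and the libraries of the other two factors overlapped. At day 6, when 28.4% of genes were called higher, mean Pou5f1 was 3.95-fold, Sox2 4.55-fold and Nanog 8.10-fold higher in K19R, log2 changes of 1.97 ± 0.10, 2.17 ± 0.10 and 2.99 ± 0.13 (adjusted p = 1.8e-14, 1.8e-15 and 3.5e-16). At day 10, when 33.2% were, Pou5f1 was 12.3-fold, Sox2 44.2-fold and Nanog 18.7-fold higher, log2 changes of 3.62 ± 0.13, 5.47 ± 0.14 and 4.22 ± 0.14 (adjusted p = 1.4e-17, 4e-20 and 3.3e-18). The libraries of the lines did not overlap at days 6 and 10 for any of the 3. Scaled by library totals only, the median of all genes was 0.38 log2 at day 6 (0.02 with TMM) and 0.43 at day 10 (0.13), while 72.9% of calls (48.6% with TMM) and 77.0% (56.9%) were higher. The 3 factors were called higher under that scaling too.

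K19R embryoid bodies matched no single earlier FLAG-WT day across the 3 genes. Against FLAG-WT at day 2, K19R at day 6 held less Pou5f1 (log2 change -1.60 ± 0.10) and less Sox2 (-1.70 ± 0.09), both called lower with 31.7% of genes, and a Nanog level that was not called (-0.02, 95% interval -0.23 to 0.20). Against FLAG-WT at day 6, K19R at day 10 held more of each, by 0.85 ± 0.10 log2 for Pou5f1, 2.16 ± 0.10 for Sox2 and 3.02 ± 0.13 for Nanog (edgeR adjusted p = 1.5e-07, 6.8e-15 and 8.5e-16), where 31.0% of genes were called higher.

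Ranked over all 9 groups, Pou5f1 was highest in the knock-in mESCs, followed by wildtype mESCs, both lines at day 2, K19R of days 6 and 10, and last FLAG-WT of days 6 and 10. Sox2 had the same order of days and lines apart from its first pair. For Pou5f1 and Sox2 the lines were not separated beyond the spread of their libraries at day 0 or at day 2, and for Sox2 neither were K19R days 6 and 10. Nanog had another order, in which K19R at day 10, FLAG-WT at day 2 and K19R at day 6, at 95.5, 94.98 and 94.0 CPM, were not separated and lay above K19R at day 2, at 72.0 CPM. With other scaling factors the places within that trio changed, and no other place did for any of the 3 genes.

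Ratios between the factors within a library do not depend on how libraries are scaled. Per exonic kilobase, the Sox2 level in FLAG-WT was 0.633, 0.625, 0.510 and 0.350 of the Pou5f1 level on days 0, 2, 6 and 10. In K19R the ratio was 0.60, 0.624 and 0.586 up to day 6 and 1.26 at day 10, with 1.23 and 1.30 in its libraries. K19R at day 10 was the only group of the 9 in which Sox2 exceeded Pou5f1 by this measure. The Pou5f1 length includes the 317 bases shared with Gm19553, where counts without a strand option are uncertain. Whether a ratio to Pou5f1 close to 1 lies above or below it is uncertain for that reason. With 2 libraries a group an exact permutation test cannot go below p = 0.333 (two-sided), so these ratios carry no test of their own.

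Nanog shifted relative to both. Its level per kilobase was 1.53 times that of Pou5f1 in FLAG-WT and 1.45 times in K19R at day 0, and 0.540 times in wildtype mESCs. At day 2 it was 0.160 and 0.116 of Pou5f1 in FLAG-WT and K19R. By day 10 the ratio to Pou5f1 was 1.06 in K19R, with 1.04 and 1.09 in the libraries, and 0.715 in FLAG-WT, where the libraries stood apart at 0.925 and 0.505. From day 6 to day 10 mean Nanog went from 94.0 to 95.5 CPM in K19R, while Pou5f1 fell from 196 to 90.2. In FLAG-WT both fell, Nanog from 11.6 to 5.11 CPM and Pou5f1 from 49.8 to 7.32. Against Sox2, Nanog held 0.820 at day 6 and 0.842 at day 10 in K19R, close to the 0.793 of wildtype mESCs, while the levels of both were lower than there.

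**Figure D3:**
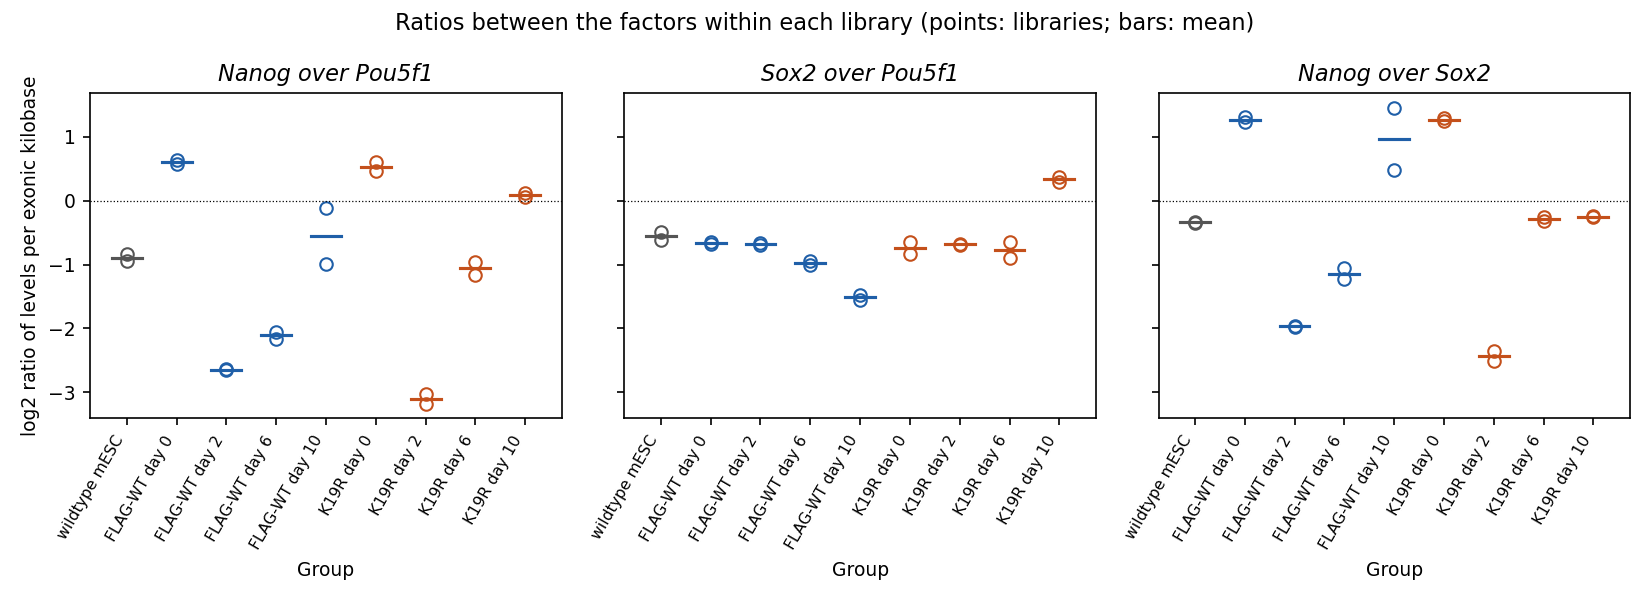
log2 ratio of the levels per exonic kilobase of each pair of factors within each library, by group; circles are libraries and bars their mean, with 0 marking equal levels. Sox2 lies below Pou5f1 in every group but K19R at day 10.

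The 5 genes whose courses were most like each factor were found among 9729 genes by the root mean square difference of their log2 levels, each gene centred on its own mean over the 8 FLAG-EED groups. The smaller the value, the more alike are the courses. Pou5f1 and Sox2 differed from each other by 0.470 (Pearson's r over the 16 libraries 0.985) and from Nanog by 1.36 and 1.34. The nearest to Pou5f1 were Fam25c (0.371), Morc1 (0.390), Fgf4 (0.397), Kbtbd11 (0.414) and Ooep (0.417). Fgf4 encodes a fibroblast growth factor of the early embryo and Ooep an oocyte protein. The nearest to Sox2 were Morc1 (0.461), Kbtbd11 (0.476), Fgf4 (0.480), Esrrb (0.524), which encodes an orphan nuclear receptor of naive pluripotency, and Stmn2 (0.535). The nearest to Nanog were St8sia1 (0.257), Prdm14 (0.379), Crxos (0.392), Spp1 (0.580) and Zfp607b (0.595). Prdm14 encodes a PR domain repressor of mESCs and early germ cells. The libraries share their days and lines in these values, so they are a description.

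Textbook targets of the OCT4 and SOX2 pair were lost in FLAG-WT and partly kept in K19R. All 6 (Fgf4, Utf1, Fbxo15, Lefty1, Spp1 and Tdgf1) were called lower at day 10 against day 0 in either line. Their median log2 change was -5.44 in FLAG-WT and -2.98 in K19R, against -0.12 and 0.01 over all genes tested. Of all genes, 40.9% were called lower in FLAG-WT and 35.8% in K19R. The count of targets was 6 of 6 in both lines without any 1 library, FLAG-WT replicate 2 of day 0 included. Their summed level went from 2263 and 2243 CPM at day 0 to 43.1 and 55.2 at day 10 in FLAG-WT, and from 2277 and 2163 to 291 and 235 in K19R. At day 10 all 6 were called higher in K19R than in FLAG-WT, as were 33.2% of all genes. The median was 2.70 log2 against 0.13 over all genes. Tdgf1, the gene of the Nodal co-receptor Cripto, held 82.9 and 61.0 CPM in K19R and 3.59 and 3.51 in FLAG-WT (log2 change 4.34 ± 0.19, edgeR adjusted p = 6.8e-16). Fgf4 held 45.9 and 34.4 against 2.16 and 2.65 CPM (4.06 ± 0.19, adjusted p = 1.5e-15).

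The targets did not all follow the factors at day 2, when Pou5f1 and Sox2 were not called between the lines. Lefty1, the gene of a Nodal antagonist, was higher in K19R (90.7 and 102 against 44.9 and 38.8 CPM, log2 change 1.20 ± 0.11), as were Tdgf1 (0.58 ± 0.12) and Fgf4 (0.52 ± 0.11). Spp1, the gene of the matrix protein osteopontin, was lower (40.6 and 47.4 against 130 and 113 CPM, -1.47 ± 0.10). Fbxo15 (0.01 ± 0.10) and Utf1 (0.18 ± 0.09) did not pass, the latter passing without K19R replicate 1 of day 2 (0.26, adjusted p = 0.0479). Of the 6, 3 were thus called higher and 1 lower, with a list median of 0.35 against 0.00 over all genes, of which 41.8% were called in either direction.

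From day 6 to day 10 in K19R, Lefty1 (3.12 ± 0.22) and Tdgf1 (0.78 ± 0.13) rose, Utf1 (-2.23 ± 0.10) fell, and Spp1 and Fbxo15 did not pass. Fgf4 was called lower (-0.29 ± 0.12, edgeR adjusted p = 0.041), but not with DESeq2 (-0.32, adjusted p = 0.159), without K19R replicate 2 of day 10 (-0.10) or without replicate 1 of day 6 (-0.06). In that step 33.4% of genes were called higher and 25.2% lower. Lefty1 held 1.34 and 0.605 CPM in K19R at day 6 and 8.10 and 8.53 at day 10, and Utf1 went from 218 and 230 to 50.1 and 45.3 CPM. In FLAG-WT, where 22.9% of genes were called lower and 21.2% higher, 4 of the 6 fell in that step and Lefty1 was called higher (1.14 ± 0.36, edgeR adjusted p = 0.012), a call lost without replicate 2 of day 10 (0.85) or of day 6 (0.94).

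Of 20 partners and co-regulators of the factors, 13 were called higher, 4 lower and 3 not called in K19R against FLAG-WT at day 10, with a median of 0.81 log2 against 0.13 over all genes. Among the higher genes were Nr0b1 (4.75 ± 0.25), which encodes the orphan nuclear receptor DAX1, Esrrb (4.72 ± 0.17) and Prdm14 (3.91 ± 0.33). Esrrb held 94.7 and 69.0 CPM in K19R and 3.22 and 2.97 in FLAG-WT. The 4 lower genes were the Krüppel-like factors Klf2 (-1.87 ± 0.09), Klf5 (-0.59 ± 0.08) and Klf4 (-0.50 ± 0.08), and Tfcp2l1 (-0.45 ± 0.08), another factor of naive pluripotency. Klf4 and Tfcp2l1 were not called with library totals only, and Rif1, called higher by 0.21 ± 0.09 (edgeR adjusted p = 0.049), was not called with relative log expression (RLE) size factors (0.15), with DESeq2 (0.15), or without replicate 2 of FLAG-WT (0.08) or of K19R (0.12). With library totals only 15 were higher and 2 lower, and with RLE 12 and 5. At day 10, 33.2% of all genes were called higher and 25.2% lower between the lines.

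At day 2 the balance was the reverse, and 11 of 20 were called lower in K19R, 3 higher and 6 not called, with a median of -0.49 log2 against 0.00 over all genes, of which 21.8% were called lower. Of the lower calls, the largest differences between the lines were those of the T-box gene Tbx3 (-2.49 ± 0.09), Klf4 (-2.28 ± 0.10), Klf5 (-2.22 ± 0.08) and Tfcp2l1 (-1.78 ± 0.08). Klf4 held 11.1 and 9.84 CPM in K19R and 50.3 and 51.4 in FLAG-WT. The 3 higher genes were Trim28, Nacc1 and Tcf7l1, the last the gene of a WNT pathway repressor that limits Nanog. Esrrb, Nr0b1 and Prdm14 were also among those called lower at day 2.

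While Sox2 and Nanog held level in K19R from day 6 to day 10, 11 of the 20 partners rose, 3 fell and 6 were not called. The list median was 0.35 log2 against 0.07 over all genes, of which 33.4% were called higher and 25.2% lower. Klf4 rose by 2.35 ± 0.09 log2, Tbx3 by 1.58 ± 0.09, Nr0b1 by 1.19 ± 0.14 and Nr5a2, another orphan nuclear receptor gene, by 0.87 ± 0.15. Dppa4 (-1.17 ± 0.09) and Rif1 (-0.60 ± 0.09) fell, and the call of Tcf7l1 (-0.20 ± 0.07, edgeR adjusted p = 0.021) was lost without replicate 2 of day 10 (-0.14) or of day 6 (-0.15). In FLAG-WT the list median was -0.13 against -0.03 over all genes. There 6 rose, with 21.2% of genes, and 9 fell, with 22.9%. Among those that fell were Dppa4 by 3.11 ± 0.15 log2, Nr0b1 by 2.46 ± 0.35 and Esrrb by 2.34 ± 0.20. When single libraries were left out, 9 to 13 rose in K19R and 4 to 7 in FLAG-WT.

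**Figure D4:**
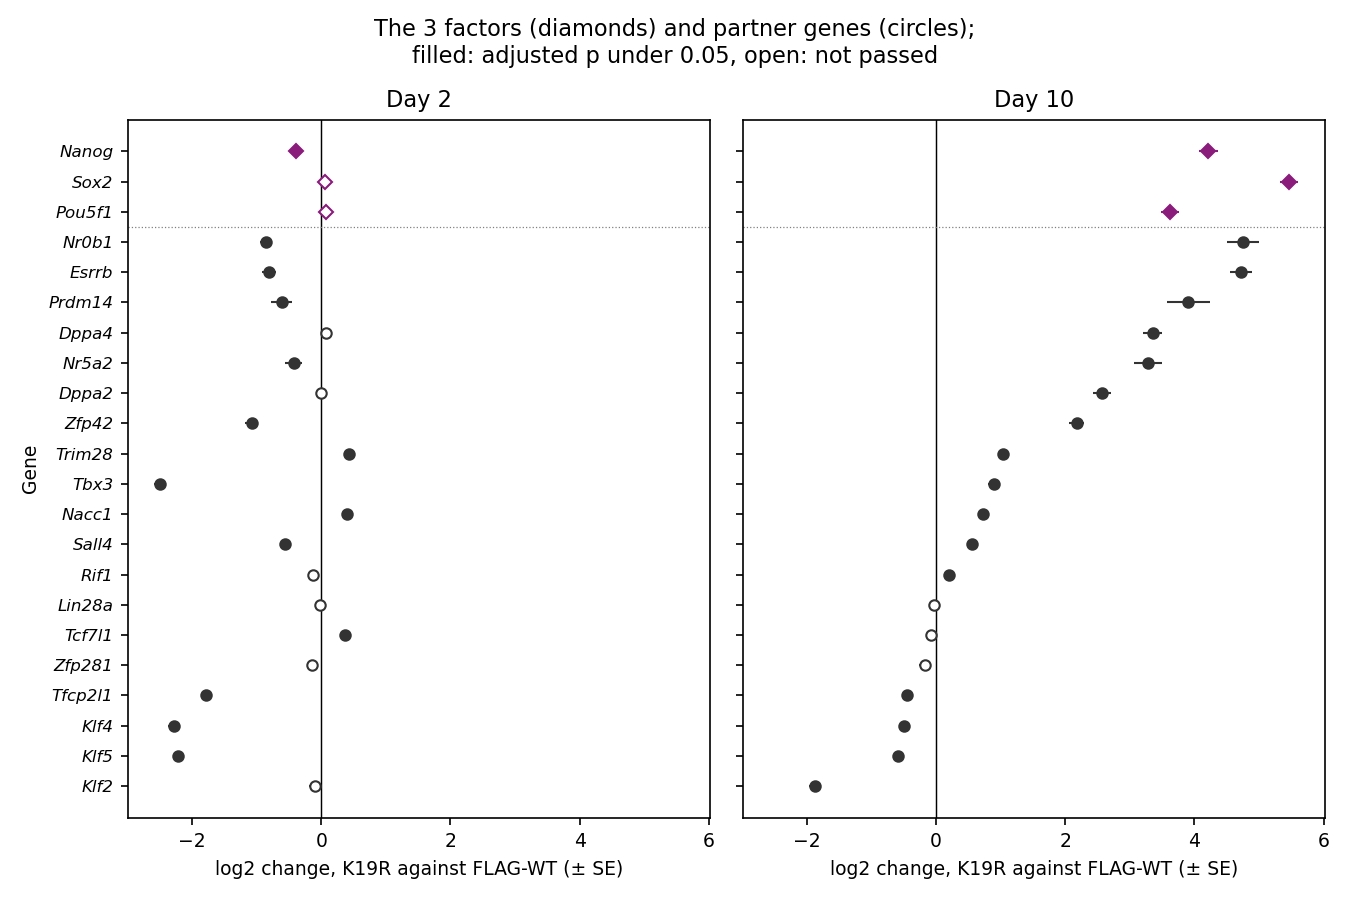
log2 change of K19R against FLAG-WT (± SE) at days 2 and 10 for the 3 factors (diamonds) and partner genes (circles), with the factors above and the partners ordered by their change at day 10; filled symbols passed an edgeR adjusted p of 0.05. At day 10 the 3 factors lie among the genes highest in K19R against FLAG-WT, and at day 2 none of them is above 0 with a call.

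Other members of the factors' gene families were called in both directions between the lines. Of 14 other POU genes, 11 passed the filter on low counts, and in K19R against FLAG-WT 4 were called higher, 2 lower (3 with RLE) and 5 not called at day 10, with a median of 2.01 log2 over the 11 against 0.13 over all genes. Of all genes, 33.2% were called higher and 25.2% lower, so the POU counts lie near the background. The 4 higher genes were low in both lines: Pou4f1 held 2.14 and 2.31 CPM in K19R and 0.474 and 0.0541 in FLAG-WT, and Pou4f2, Pou2f2 and Pou3f3 were below 1 CPM in every library of day 10. Pou4f2 (2.30 ± 0.77) was not called without FLAG-WT replicate 2 (1.93, edgeR adjusted p = 0.0883) or K19R replicate 1 (1.06, adjusted p = 0.414). The lower ones were Pou2f3 (-1.68 ± 0.22) and Pou2f1 (-0.73 ± 0.10), which encodes the widely expressed OCT1. At day 2 Pou3f1, the gene of OCT6 and a marker of the formative epiblast, stood at 296 and 328 CPM in K19R and 93.3 and 97.9 in FLAG-WT (1.71 ± 0.09, edgeR adjusted p = 6.9e-14). It held 3.32 to 4.95 CPM in the 4 libraries of day 0.

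Of 18 other SOX genes, all passed the filter, and 9 were called higher, 4 lower and 5 not called at day 10 (11 higher and 3 lower with library totals only), with a median of 0.58 log2 against 0.13 over all genes. The share of lower calls lies near the 25.2% over all genes, 33.2% of all genes were called higher, and 6 to 12 SOX genes were called higher when 1 library was left out. Sox9, a regulator of several epithelial and skeletal lineages, held 8.30 and 7.03 CPM in K19R and 41.2 and 55.8 in FLAG-WT (-2.66 ± 0.18, edgeR adjusted p = 4e-12). Sox15, a close relative of Sox2 in binding, held 3.63 and 4.24 CPM in K19R and 0.896 and 0.649 in FLAG-WT (2.34 ± 0.27). Sox18 (2.50 ± 0.61) and Sox10 (2.17 ± 0.71) were below 2 CPM in every library of day 10. Sox18 was not called without K19R replicate 2 (1.35, edgeR adjusted p = 0.098), nor Sox10 without FLAG-WT replicate 2 (1.63, adjusted p = 0.106). Sox2ot, within whose span Sox2 lies, held 70 and 49 counts in FLAG-WT and 89 and 57 in K19R at day 0. At day 10 it held 0 counts in both FLAG-WT libraries and 8 and 4 in K19R.

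Lineage regulators known to oppose or replace the factors were lower in K19R at day 2 and summed to like levels by day 10. At day 2, 5 of 7 were called lower in K19R than in FLAG-WT and 0 higher, with a median of -2.05 log2, while 21.8% of all genes were called lower. They were Gata4 (-3.39 ± 0.10), Foxa2 (-2.76 ± 0.15), Gata6 (-2.69 ± 0.08), Sox17 (-2.05 ± 0.14), all regulators of endoderm, and Eomes (-1.37 ± 0.14), while Cdx2 and T did not pass. The summed level of the 7 was 68.5 and 64.8 CPM in K19R and 451 and 448 in FLAG-WT, and Pou5f1 and Sox2 overlapped between the lines on that day. By day 10 the sums were 810.1 and 845 against 867 and 764 CPM and overlapped, while Pou5f1, Sox2 and Nanog were 12.3 to 44.2-fold apart. Gata4 was the largest part of these sums, at 443 and 474.5 CPM in K19R and 431 and 376 in FLAG-WT, and single genes differed in both directions. At day 10 T, a regulator of the primitive streak, had 235 counts in K19R and 0 in FLAG-WT, and Eomes was higher by 1.87 ± 0.16 log2. On that day 3 of the 7 were called higher and 2 lower (5 and 1 with library totals only), with a median of 0.22 log2 and near the 33.2% and 25.2% over all genes. The higher count was 5 without FLAG-WT replicate 1, where Gata4 (0.29) and Sox17 (0.47) were called. Gata6 (-0.21 ± 0.07), 1 of the 2 lower genes, was not called without FLAG-WT replicate 1 (-0.17) or K19R replicate 2 (-0.15). The other lower gene, Foxa2 (-0.93 ± 0.09, edgeR adjusted p = 2.5e-09), held 88.0 and 91.2 CPM in K19R and 170.5 and 171.4 in FLAG-WT.

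Markers of cells that use these factors outside the mESC state were measured beside them at day 10, when 33.2% of all genes were called higher and 25.2% lower in K19R and their median was 0.13 log2. Of 10 formative and primed epiblast markers, 8 were called higher in K19R at day 10, 0 lower (1 with RLE) and 2 not called, with a median of 2.36 log2, and their summed level was 456 and 481 CPM against 246 and 236 in FLAG-WT. Fgf5 (4.92 ± 0.31), Otx2 (4.91 ± 0.19), Zic2 (3.57 ± 0.19) and Foxd3 (3.17 ± 0.24) changed most, with Otx2 at 26.2 and 24.0 CPM in K19R and 0.527 and 1.14 in FLAG-WT. Of 8 germ cell markers, 6 were called higher and 2, Kit and Ddx4, lower, with a median of 1.25 log2 and sums of 253 and 221 against 370 and 392 CPM. Most of each sum was Kit, at 181 and 151 CPM in K19R and 337 and 365 in FLAG-WT, so the sums mainly give the level of that gene. Dazl held 14.9 and 15.3 CPM in K19R and 0.738 and 0.270 in FLAG-WT, Dppa3 5.32 and 5.66 against 1.11 and 0.703, and Nanos3 0.685 and 0.386 against 0.105 and 0. Nanos3 was not called without FLAG-WT replicate 2 or K19R replicate 1. At day 0 mean Dazl was 50.8 CPM in K19R and 151.8 in FLAG-WT, and mean Dppa3 11.6 and 4.25. Both genes were called lower at day 10 than at day 0 in K19R (-1.75 and -1.08 log2, with 35.8% of genes) and in FLAG-WT (-8.21 and -2.22, with 40.9%). Of 8 neural progenitor markers, 7 passed the filter, 2 were called higher and 4 lower, with a median of -1.03 log2 and sums of 83.6 and 84.5 against 244 and 226 CPM. Sox1 (1.89 ± 0.56, at 0.524 and 0.90 CPM, not called without K19R replicate 2) and Sox3 (1.68 ± 0.41, at 1.65 and 2.49 CPM) were the higher ones. Within K19R, Sox1 had fallen by 3.09 log2 since day 0. The lower ones were Nes (-1.80 ± 0.08), Zic1 (-1.17 ± 0.30), Pax6 (-1.13 ± 0.30) and Msi1 (-1.03 ± 0.09). Hes5 had 1 count in K19R and 0 in FLAG-WT, and Olig3 had 0 in FLAG-WT. The part of any such cells in the levels of Pou5f1, Sox2 and Nanog was not tested.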

How the data were processed

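RNA-seq counts were read from 18 libraries of mouse mESCs and embryoid bodies, grouped by the labels. Per the file headers, the authors' deposited counts are unnormalized numbers of read pairs per gene, from featureCounts 1.6.3 (FLAG-EED table) and 1.6.4 (wildtype table) over exons of GENCODE vM19 on GRCm38, with no strand option. Reads shared by overlapping genes or near-identical copies are therefore uncertain. STAR 2.7.0c, Trim Galore 0.6.0 and FastQC 0.11.7 are named, per the submitters' processing notes. Replicates of each group differed by more than sampling noise (chi-square per degree of freedom 2.28 to 11.2), so none was taken for a repeat.

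The 16 FLAG-EED libraries were fitted together with edgeR 4.0.16 in R 4.3.3 (TMM, filterByExpr minimum count 10, minimum total 15, glmQLFit, 1 coefficient per group). That fit kept 19092 genes and had 8 residual degrees of freedom. For wildtype mESCs a second fit took all 18 libraries over the 54352 shared names (19296 genes, 9 residual degrees of freedom). Each comparison was tested two-sided with glmQLFTest, adjusted by Benjamini-Hochberg over all genes tested with a threshold of 0.05. The SE is the absolute log2 change over the square root of F, and intervals are 95%. Levels are CPM scaled by TMM over the 18 libraries. Simulated counts for K19R against FLAG-WT at day 2 (18709 genes) were used to check the test: 88 of 100 genes changed by 1 log2 and 61 of 100 changed by 0.5 were recovered, with 7 false calls.

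Likeness used log2 CPM with a prior count of 2 and genes with a mean of at least 10 CPM. The named genes are the 3 factors, the 5 genes nearest to each, and of each list up to 4 with the largest called change and those whose call differs from the rest. The 3 factors and all gene lists were chosen with earlier results of these data known. Alternatives were relative log expression (RLE) size factors, library totals only, no filter, DESeq2 1.42.0, the replicate number as a block, and leaving out each library. Promoters are from RefSeq. Of the partner list, 1 gene is counted but not reported here by name.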

Additional observations from a re-analysis of the deposited data

Results flagged for a closer look

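The change between days differed between K19R and FLAG-WT by the interaction test of edgeR in 10 of the 12 cases tested for the 3 factors, and each is given as K19R minus FLAG-WT on the log2 scale. From day 2 to day 6 the difference was 1.91 for Pou5f1, 2.11 for Sox2 and 3.39 for Nanog. From day 6 to day 10 it was 1.65 for Pou5f1, 3.29 for Sox2 and 1.22 for Nanog. From day 0 to day 10 it was 3.56 for Pou5f1, 5.48 for Sox2 and 4.24 for Nanog. From day 0 to day 2 it was -0.38 for Nanog, a call lost whenever 1 library was left out. Of all genes, 23.2%, 24.4% and 26.1% were called higher in the first 3 of these comparisons, and 14.4% lower in the last. The difference from day 0 to day 10 is the sum of those of the steps, so the 12 cases are not separate.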

How the results depend on the processing

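Of 588 values of the 60 tests of the 3 factors under alternatives, 576 kept their side of the threshold. Among these, tests that were not called could change direction, as Pou5f1 between the lines at day 0 did (-0.03 to 0.16 without 1 library). The other 12 values, all of Nanog, kept their direction and lost the call. For the line difference from day 0 to day 2 these were -0.37 with library totals only (adjusted p = 0.0638), -0.38 with DESeq2 (adjusted p = 0.217), and -0.40 to -0.36 when 1 library was left out. With DESeq2 they were also 0.34 for K19R from day 2 to day 6 (adjusted p = 0.0651) and -0.38 for K19R against FLAG-WT at day 2 (adjusted p = 0.0503). The cause was not tested. Same-numbered replicates did not deviate together (correlations -0.0297 to 0.0481 over 28 pairs of groups, none over 0.1), so the numbers do not pair the samples, and with the replicate number as a block every call of the 3 factors stood, with Nanog from day 0 to day 2 at -0.38 (adjusted p = 0.0316), while Rif1 in K19R against FLAG-WT at day 10 was not called with the block (0.21, adjusted p = 0.0506). The count of all genes called between the lines at day 0, 2003, was 845 to 955 when 1 library was left out. Library totals only moved the share of all calls that were higher from 49.1% to 34.6% for FLAG-WT from day 2 to day 6, from 47.5% to 36.8% for FLAG-WT from day 0 to day 10, from 52.1% to 80.7% and from 58.1% to 80.3% for the line differences from day 2 to 6 and day 0 to 10, and from 53.8% to 75.1% for K19R at day 10 against FLAG-WT at day 6. Depth limits the FLAG-WT levels at day 10, where Sox2 rests on 40 and 48 counts, and the list genes below 1 CPM.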
